A study of Mus musculus with 18 samples.

Results

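Polyamines are small, positively charged molecules (putrescine, spermidine and spermine) that bind nucleic acids. The prostate makes and secretes them in large amounts. Ornithine decarboxylase (Odc1) makes putrescine from ornithine, and S-adenosylmethionine decarboxylase (Amd1) supplies the aminopropyl groups with which spermidine synthase (Srm) and spermine synthase (Sms) extend it. Antizymes (Oaz1, Oaz2) bind ornithine decarboxylase and send it to the proteasome, and the antizyme inhibitor (Azin1), a relative of the enzyme without its activity, binds antizyme in its place. Spermidine/spermine N1-acetyltransferase (Sat1) with polyamine oxidase (Paox), and spermine oxidase (Smox) on its own, run the chain backwards.

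The RNA levels of these 10 genes, selected by symbol, were examined in mouse prostate. All 10 were among the 55469 genes of the deposited tables, and all 10 passed the filter on low values in every comparison. Libraries came from the ventral and lateral lobes of male mice of the strain labelled C56NL/6N, aged 10 or 30 weeks, with 3 libraries per group. The KO mice carried a homozygous deletion of Elac2 exon 8 made by Pb-Cre, in which the probasin promoter restricts the recombinase to the prostate. The A537T mice were homozygous throughout the body for a threonine substitution introduced with CRISPR-Cas9, and the WT mice were littermates with ELAC2+/+. None of these groups carried the TRAMP transgene. Elac2 encodes the RNase Z that cuts the 3′ ends of tRNA precursors, and the comparisons asked how its loss or substitution changed prostate RNA at each age.

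The libraries held 6569642 to 11225281 recovered counts. Elac2 normalized counts in the KO were 119.4, 111.2 and 115.5 at 10 weeks, against 124.2, 142.4 and 166.3 in WT, and 98.4, 151.3 and 122.1 at 30 weeks, against 149.6, 153.2 and 194.0. The gene count does not isolate exon 8, and the promoter is not active in every cell of the lobes, so it is a weak check of the label. The paper itself reports loss of the ELAC2 protein in KO prostates by immunoblot, and checked genotypes by Sanger sequencing. Markers of other tissues differed widely between libraries and with the groups. The 8 seminal vesicle genes made up 6.55 to 10.3% of counts in the KO at 10 weeks, and 0.000808, 1.76 and 4.64% in WT. At 30 weeks they made up at most 0.000335% in WT, but 6.32 and 8.53% in 2 KO libraries and 7.24 and 9.17% in 2 A537T libraries. The third KO library (5AF in the table headers) and the third A537T library (8AF) had almost none. The 17 skeletal muscle genes made up 3.80 to 12.3% in WT at 10 weeks, 0.0570 to 1.99% in the KO, 1.50 to 4.23% in A537T, and at most 0.0697% in any library at 30 weeks. The 12 prostate epithelium genes were detected in every library but also moved with the groups. They include Sbp, an abundant secreted protein of the prostate, so their share also follows Sbp. In the KO table at 10 weeks Sbp ran from 321.2 normalized counts in KO library 15AF to 1107832 in WT library 12AF. At that age the 12 genes made up 0.500 to 3.88% in the KO, 7.93 to 10.4% in A537T and 3.71 to 13.4% in WT. At 30 weeks they made up 7.59 to 14.8% in WT, 14.3 and 14.8% in 5AF and 8AF, and 4.51 to 7.36% in the other 4 mutant libraries. In bulk tissue, fewer cells of a type and less RNA per cell cannot be told apart.

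Promoter sequences are shown for some of the genes discussed below. Windows of 300 bases around the RefSeq start site (build GRCm38.p6) were found for 8 of the 10 genes. The 100 bases before the start are printed 5′ to 3′ for Amd1, Odc1, Sat1 and Smox, with GGGCGG and TATATAA, on either strand, in capitals. The 100 bases before the Oaz1 start held neither and are not printed.
Amd1 (chr10:40302189-40302288, minus strand): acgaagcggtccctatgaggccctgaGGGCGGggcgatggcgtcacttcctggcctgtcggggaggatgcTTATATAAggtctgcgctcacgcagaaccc
Odc1 (chr12:17544773-17544872, plus strand): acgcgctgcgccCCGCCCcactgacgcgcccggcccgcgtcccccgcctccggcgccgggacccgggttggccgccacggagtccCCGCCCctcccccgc
Sat1 (chrX:155216450-155216549, minus strand): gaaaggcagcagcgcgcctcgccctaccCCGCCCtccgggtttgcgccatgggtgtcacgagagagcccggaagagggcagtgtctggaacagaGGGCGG
Smox (chr2:131491762-131491861, plus strand): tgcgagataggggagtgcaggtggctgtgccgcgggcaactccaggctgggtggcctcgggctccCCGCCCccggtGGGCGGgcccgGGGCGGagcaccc
Amd1 alone among the 8 genes held TATATAA, which lay in 3.24% of all 32851 windows. The Oaz1 window held TATAAA, which lay in 13.6% of all windows. The 2 matches in Amd1 overlap, since the letters read nearly alike on both strands. GGGCGG lay in 7 of the 8 genes and in 35.7% of all windows, with 6 copies in the Smox window and 4 in that of Odc1. These matches describe letters in a window and were not tested as binding sites.

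Antizyme is made only when the ribosome shifts frame on its mRNA, at a stop codon that polyamines help it to pass. The site, in capitals, was the same in both antizyme genes in GENCODE vM21 (GRCm38).
Oaz1 (chr10:80828277-80828311, plus strand): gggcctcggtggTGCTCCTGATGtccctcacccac
Oaz2 (chr9:65686254-65686288, plus strand): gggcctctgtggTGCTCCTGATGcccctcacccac
RNA levels, the only quantity here, do not measure this shift.

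Per kilobase of gene model, Amd1 was the most abundant of the 10, with a median over the 18 libraries of 176 RPKM (recovered counts scaled to library total and gene model length). Odc1 followed at 53.4, Oaz1 at 38.3, Sat1 at 22.9, Azin1 at 19.1, Srm at 16.7 and Oaz2 at 13.2 RPKM. The lowest were Smox at 4.47, Sms at 4.11 and Paox at 1.59 RPKM. Amd1 exceeded Odc1 in 18 of 18 libraries, Oaz1 exceeded Sat1 in 18, Oaz2 exceeded Smox in 18 and Sms exceeded Paox in 18. Sat1 and Azin1 changed places between libraries, with Sat1 higher in 11 of 18, as did Azin1 and Srm (12 of 18) and Smox and Sms (12 of 18). WT values here are those of the KO tables. The tables of the lines were scaled separately, and the same library also differed between tables by an amount that depended on the gene. The same WT library at 10 weeks gave 10.6 to 12.6% more Azin1 in the A537T table than in the KO table, while Paox differed by -9.78 to -8.73%.

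**Figure D1:**
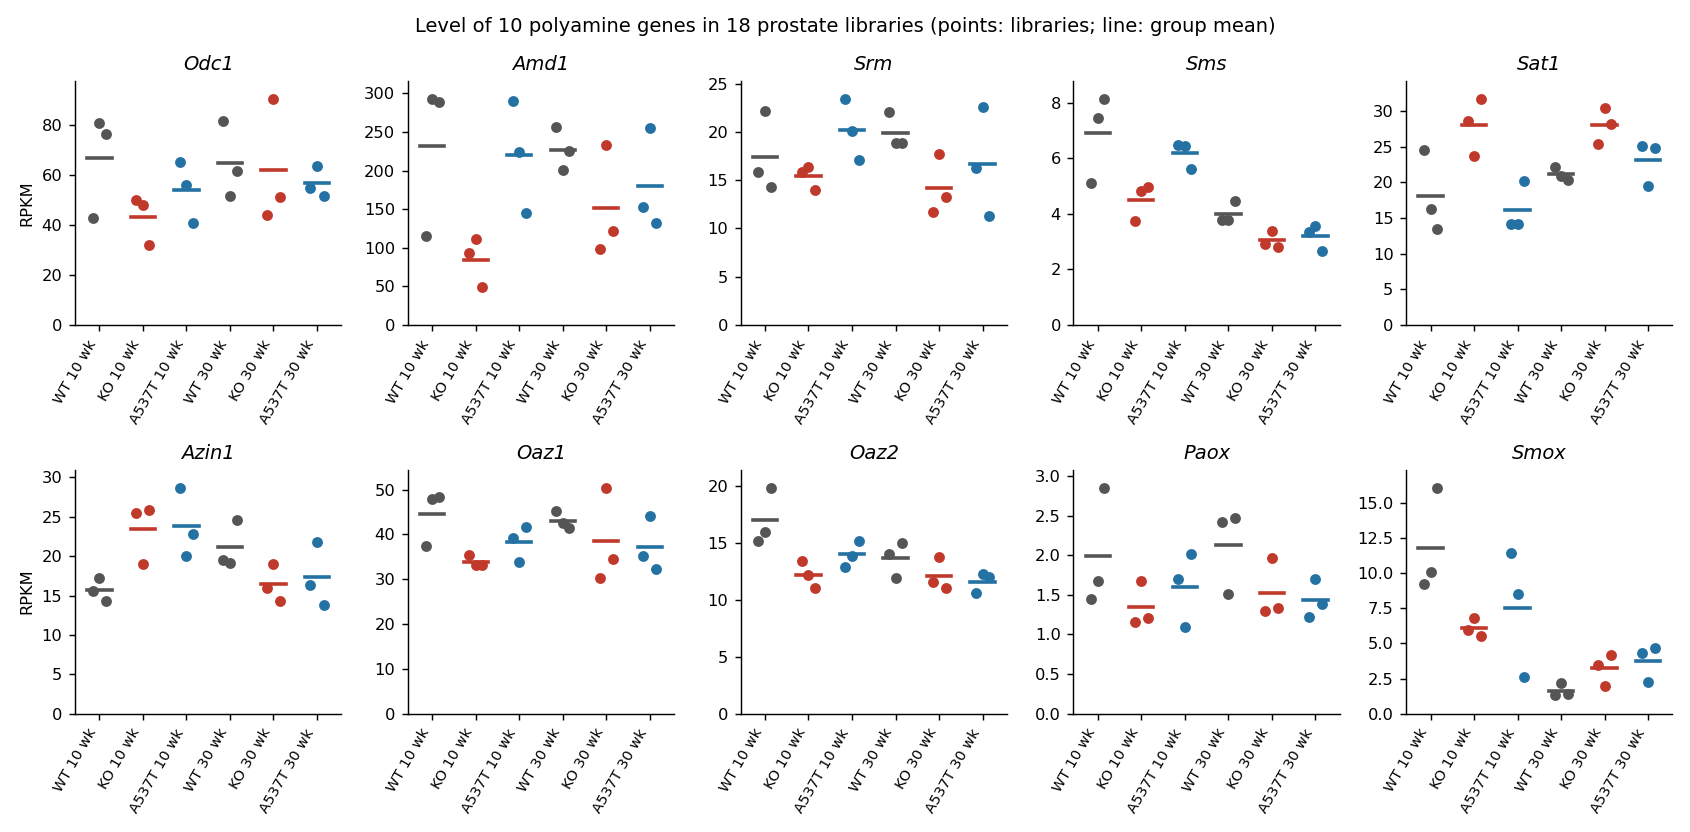
Level of each polyamine gene in RPKM (y axis, from 0) in the 6 groups (x axis), with 1 point per library and a line at the group mean of 3 libraries. WT points come from the KO tables and A537T points from the A537T tables, which differ by gene for the same WT library. Amd1 spans 48.5 to 293 RPKM, and Smox is highest in WT at 10 weeks (9.25 to 16.1 RPKM) and lowest in WT at 30 weeks (1.33 to 2.18 RPKM).

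Over all genes, limma called no gene at an adjusted p under 0.05 in any of the 4 comparisons, which tested 15089 (KO) and 15131 (A537T) genes at 10 weeks, and 14729 and 14789 at 30 weeks. At an unadjusted p under 0.05 it held 2930, 973, 1616 and 2016 genes in that order. edgeR called 0 genes in each, and DESeq2, on the recovered counts, called 696 (4.36% of the genes with an adjusted p), 94 (0.648%), 279 (1.75%) and 457 (2.78%). So no polyamine gene passed the main test, and the values below describe differences that failed the correction unless DESeq2 is named. Both mutants of an age were compared with the same WT libraries, so their differences are not independent.

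In each comparison 8 of the 10 genes had a log2 fold change below 0, where 50.6% (KO) and 48.5% (A537T) of all genes did at 10 weeks and 50.9 and 50.7% at 30 weeks. The 10 genes had a median of -0.70 in the KO at 10 weeks and of -0.25 in A537T, and of -0.27 and -0.26 at 30 weeks, on the log2 scale, where the median of all genes lay within 0.011 of 0. In the KO at 10 weeks, 5 of the 10 were lower and 2 higher at an unadjusted limma p under 0.05, as were 11.5 and 7.97% of all genes. In the KO at 30 weeks 4 were lower (Amd1, Srm, Sms and Azin1) and 2 higher (Sat1 and Smox), against 5.41 and 5.56% of all genes. In A537T 0 were lower and 0 higher at 10 weeks, against 3.67 and 2.76%, and at 30 weeks Azin1 was lower and Smox higher, against 6.28 and 7.35%. The 3 KO libraries lay entirely below WT for 5 of the 10 genes at 10 weeks (Amd1, Smox, Sms, Oaz1 and Oaz2), as for 14.3% of all genes, and entirely above for Azin1, as for 11.7%.

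**Figure D2:**
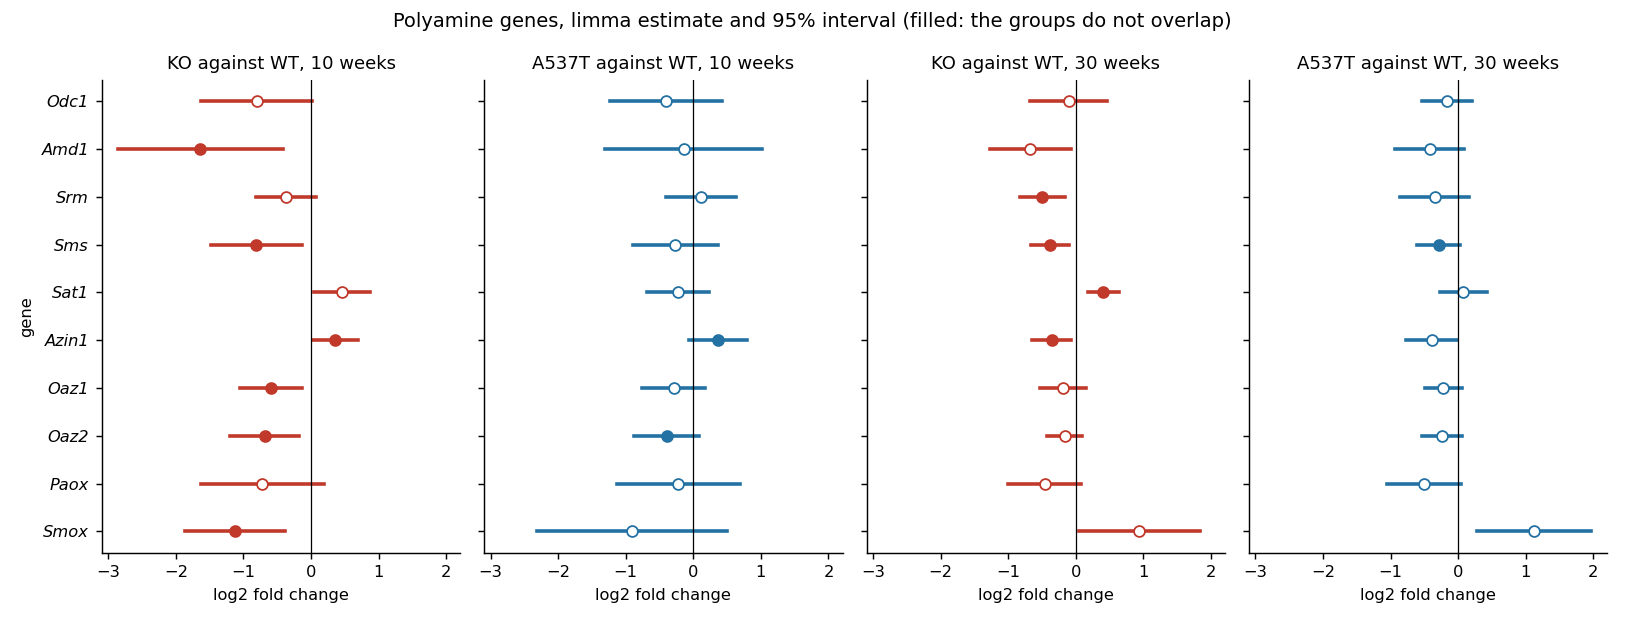
log2 fold change of each gene (x axis) against WT in the 4 comparisons, with limma's 95% interval; filled points mark genes whose 3 mutant and 3 WT libraries do not overlap. Amd1 (-1.64) and Smox (-1.13) lie furthest left in the KO at 10 weeks, and Smox lies furthest right at 30 weeks (0.94 in the KO, 1.13 in A537T).

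Of the synthesis genes, Amd1 differed most in the KO at 10 weeks. Its normalized counts were 3252, 8831 and 10592 in WT and 2445, 3199 and 1291 in the KO. All 3 KO libraries were below WT, but the lowest WT library (10AF) was close to the highest KO library and far from both others of its group. The log2 fold change was -1.64 ± 0.51 (SE), or 0.321-fold, with a limma adjusted p of 0.189. DESeq2 called this difference, with an adjusted p of 0.00745. Leaving out WT library 10AF gave -2.16 (limma adjusted p = 0.0233), and a skeletal muscle score as a covariate gave -0.49. Over its alternatives the adjusted p of Amd1 ran from 0.00745 to 1.0, the upper end from the skeletal muscle score. With that score the smallest limma adjusted p of any gene in this comparison was 0.9997, so the adjusted p does not set genes apart. At 10 weeks the share of the seminal vesicle genes was higher in the KO than in WT, without overlap. No score of those genes was fitted at that age for any gene. The share of the skeletal muscle genes was lower in the KO, also without overlap. The prostate epithelium genes, Sbp among them, were likewise low in the KO libraries and in 10AF (3.71%). Their part in the differences of Amd1, Odc1 and the antizymes was not tested.

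In A537T at 10 weeks Amd1 counts were 9190, 6886 and 4013, against 3425, 9128 and 10992 in WT, and the groups overlapped (log2 fold change -0.15 ± 0.49). At 30 weeks they were 3331, 6794 and 4098 in the KO, against 8058, 6634 and 7022 in WT. The KO library with high Amd1 was 5AF, the one with almost no seminal vesicle signal. In A537T at 30 weeks they were 4735, 7640 and 4355, against 8068, 6636 and 7048, and the high library was again the one without that signal, 8AF. The log2 fold changes were -0.67 ± 0.25 and -0.42 ± 0.22 (limma adjusted p of 0.430 and 0.429). Without 5AF the first was -0.97 (adjusted p = 0.0112) and without 8AF the second was -0.67 (adjusted p = 0.0200). In both fits every mutant library left held at least 6.32% seminal vesicle counts, so genotype and that signal cannot be told apart. Leaving out each library in turn gave -0.97 to -0.45 and -0.67 to -0.26, and Amd1 was not called in the other such fits. A seminal vesicle score as a covariate gave -0.15 and 0.026. Among the mutant libraries only 5AF and 8AF were as free of seminal vesicle signal as WT. All values with this score at 30 weeks therefore rest largely on 5AF in the KO and on 8AF in A537T.

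Reads of Amd1 can also come from close copies. In the GENCODE vM21 transcripts, 90.9% of the 31-base words of Amd2, on the same chromosome, and 96.8% of those of the processed pseudogene Amd-ps3 also occur in Amd1. Amd2 stood at 31.3, 70.8 and 105.1 normalized counts in WT and 15.5, 35.1 and 11.4 in the KO at 10 weeks, and Amd-ps3 at 24.5, 105.8 and 80.6 and at 26.6, 26.9 and 12.6. Both were far below Amd1, and how reads were divided among the 3 genes is uncertain.

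Odc1, the first and rate-limiting step, stood at 1165, 2349 and 2701 normalized counts in WT at 10 weeks and at 1269, 1329 and 821.9 in the KO. The KO libraries were below WT libraries 11AF and 12AF, whereas 10AF lay among them. The log2 fold change was -0.80 ± 0.35 (limma adjusted p = 0.264) with it and -1.18 (adjusted p = 0.0257) without it, and with the skeletal muscle score it was -0.18. In A537T at 10 weeks Odc1 was 1983, 1653 and 1095 against 1231, 2436 and 2812 in WT, and the groups overlapped. At 30 weeks the log2 fold changes were -0.11 ± 0.24 in the KO and -0.16 ± 0.16 in A537T, and the groups overlapped.

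Sms, which adds the last aminopropyl group to make spermine, was below WT in both mutants at 30 weeks, with no overlap. Its normalized counts were 201.0, 212.0 and 235.6 in WT and 166.0, 168.2 and 160.5 in the KO. In the A537T table they were 190.9, 201.9 and 224.7 in WT and 175.8, 181.2 and 149.0 in the mutant. The log2 fold changes were -0.39 ± 0.12 and -0.29 ± 0.14 (limma adjusted p of 0.407 and 0.40). At 10 weeks Sms was 245.5, 381.5 and 506.0 in WT and 166.7, 235.4 and 224.1 in the KO (-0.81 ± 0.28, adjusted p = 0.208), again with no overlap, whereas the A537T libraries overlapped WT. With the skeletal muscle score, whose genes Sms followed across libraries, the KO value was -0.42, in the fit where the smallest limma adjusted p of any gene was 0.9997. Srm, which makes spermidine, lay below WT in the KO at 30 weeks, at 178.3, 233.5 and 200.1 against 312.8, 282.2 and 265.3 (-0.50 ± 0.14, adjusted p = 0.392, and -0.32 with the seminal vesicle score). In the other 3 comparisons its groups overlapped, with log2 fold changes from -0.37 to 0.12. Beside these values, 3 of the 10 genes lay entirely below WT and 1 above in the KO at 30 weeks, as did 8.41 and 7.92% of all genes. In A537T at 30 weeks Sms alone lay below, and none above (9.40 and 9.18%).

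Of the genes that control ornithine decarboxylase, Azin1 in the KO lay on opposite sides of WT at the 2 ages. At 10 weeks its normalized counts were 780.7, 916.2 and 923.2 in WT and 1185, 967.2 and 1214 in the KO, all above WT. At 30 weeks they were 1086, 1123 and 1353 in WT and 949.5, 977.3 and 846.7 in the KO, all below WT. The log2 fold changes were 0.36 ± 0.14 (limma adjusted p = 0.238) and -0.36 ± 0.12 (0.407), and with the skeletal muscle score the first was 0.13. In A537T at 10 weeks Azin1 was 1603, 1087 and 1121, all above the 879.3, 1013 and 1025 of WT (0.37 ± 0.18), and at 30 weeks it was 898.0, 1152 and 801.8 against 1133, 1171 and 1415, with overlap (-0.39 ± 0.16).

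The antizymes were lower in the KO at 10 weeks without overlap. Oaz1 ranged from 639.0 to 692.1 normalized counts in the KO and from 767.0 to 1284 in WT (log2 fold change -0.60 ± 0.19, limma adjusted p = 0.192). Oaz2 ranged from 248.1 to 299.0 against 363.9 to 615.1 (-0.68 ± 0.22, adjusted p = 0.189). With the skeletal muscle score these were -0.38 and -0.40, in the fit where the smallest limma adjusted p of any gene was 0.9997. The seminal vesicle genes also separated the groups, at 6.55 to 10.3% of counts in the KO and at most 4.64% in WT. Over the 18 libraries Oaz1 had r = -0.78 with them, and no seminal vesicle score was fitted at 10 weeks. Their part in the antizyme values was not tested. In A537T at 10 weeks Oaz2 was also below WT, at 345.8 to 360.6 against 380.1 to 633.8 (-0.39 ± 0.20, adjusted p = 0.749), while Oaz1 overlapped. Oaz2 and Azin1 were the only 2 of the 10 genes without overlap there, 1 lower and 1 higher, as were 6.34 and 5.58% of all genes. At 30 weeks both antizymes overlapped WT in both mutants, with log2 fold changes from -0.24 to -0.16.

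Of the catabolic genes, Smox had a log2 fold change below 0 at 10 weeks and above 0 at 30 weeks in both mutants. At 10 weeks its normalized counts were 288.6, 335.6 and 649.8 in WT and 172.7, 215.5 and 161.2 in the KO, all below WT. The log2 fold change was -1.13 ± 0.31 (limma adjusted p = 0.183), and DESeq2 called it, with an adjusted p of 0.0168. The adjusted p of Smox ran from 0.0168 to 1.0 over its alternatives, the upper end from the skeletal muscle score. In A537T at 10 weeks it was 397.9, 288.3 and 80.7 against 289.0, 329.4 and 640.2, with overlap (-0.90 ± 0.60). With this score as a covariate the KO value was -0.57, in the fit where the smallest limma adjusted p of any gene was 0.9997. That of A537T turned to 0.50 (adjusted p = 0.896).

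At 30 weeks Smox was 45.8, 79.5 and 47.5 in WT and 129.1, 63.2 and 154.7 in the KO. In A537T it was 146.7, 74.2 and 168.7 against 45.7, 79.1 and 47.5 in WT. In each mutant 2 libraries were above WT and 1 was within it, and the one within WT was the library without seminal vesicle signal, 5AF or 8AF. The log2 fold changes were 0.94 ± 0.38 and 1.13 ± 0.36 (limma adjusted p of 0.438 and 0.298). Without 5AF the first was 1.33 (adjusted p = 0.0447), and without 8AF the second was 1.48 (adjusted p = 0.0276). Leaving out each library in turn gave 0.69 to 1.33 and 0.90 to 1.48. With a seminal vesicle score as a covariate the log2 fold changes were 0.29 and 0.51. The values with the score rest largely on 5AF and 8AF. Of the 10 genes, Amd1 and Smox were the 2 called without 5AF, when 6.41% of all genes were called, and the 2 called without 8AF, when 8.27% were. Both fits leave only mutant libraries with seminal vesicle signal. None of the 10 was called when any other library was left out at 30 weeks.

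Sat1, the acetyltransferase that is induced when polyamines accumulate, had the smallest SE of the 10 genes in the KO at 30 weeks. It stood at 546.0, 542.6 and 497.0 normalized counts in WT and at 667.8, 696.8 and 739.7 in the KO, with all KO libraries above WT, 5AF included (log2 fold change 0.41 ± 0.10, limma adjusted p = 0.381). A seminal vesicle score as a covariate gave 0.40, a value that rests largely on 5AF. At 10 weeks Sat1 was 544.9, 383.1 and 384.6 in WT and 591.1, 534.0 and 659.6 in the KO (0.46 ± 0.18, adjusted p = 0.234, and 0.16 with the skeletal muscle score), where WT library 10AF again lay among the KO. In A537T Sat1 overlapped WT at both ages (-0.23 ± 0.20 and 0.08 ± 0.15). Paox, the oxidase that acts on acetylated polyamines, ranged from 42.1 to 144.9 normalized counts over all tables and overlapped WT in all 4 comparisons, with log2 fold changes from -0.72 to -0.22.

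WT library 10AF touched most of the differences at 10 weeks. Without it, limma called 2886 genes in the KO (19.2%), among them 7 of the 10: Amd1, Smox, Odc1, Sms, Oaz1 and Oaz2 lower, and Sat1 higher. None of the 10 was called in that comparison when any other library was left out. Library 10AF stood apart from 11AF and 12AF in Sbp, the secreted spermine-binding protein of the prostate, at 232848 normalized counts against 868715 and 1107832. It also had 45648 counts of Tgm4, the secreted prostate transglutaminase, against 3057 and 18.4. In the KO of the same age Sbp was 222011, 145722 and 321.2 and Tgm4 28552, 44422 and 48974. The part of these differences in the polyamine genes was not tested.

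The change with age was tested directly as the difference between the 30-week and 10-week log2 fold changes. For Smox this was 2.07 ± 0.53 in the KO (limma adjusted p = 0.254) and 2.03 ± 0.77 in A537T (0.334), and for Azin1 it was -0.71 ± 0.18 (0.254) and -0.76 ± 0.25 (0.283). These 2 genes were the 2 of 10 with an unadjusted p under 0.05 in either line, where 12.1% of all genes had one in each, and no gene passed the correction in either line (1724 unadjusted in each). The lines share their WT libraries. In WT itself Smox lay between 9.25 and 16.1 RPKM at 10 weeks and between 1.33 and 2.18 RPKM at 30 weeks, a difference that was not tested, and the skeletal muscle genes were likewise high in WT at 10 weeks and near 0 at 30 weeks.

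**Figure D3:**
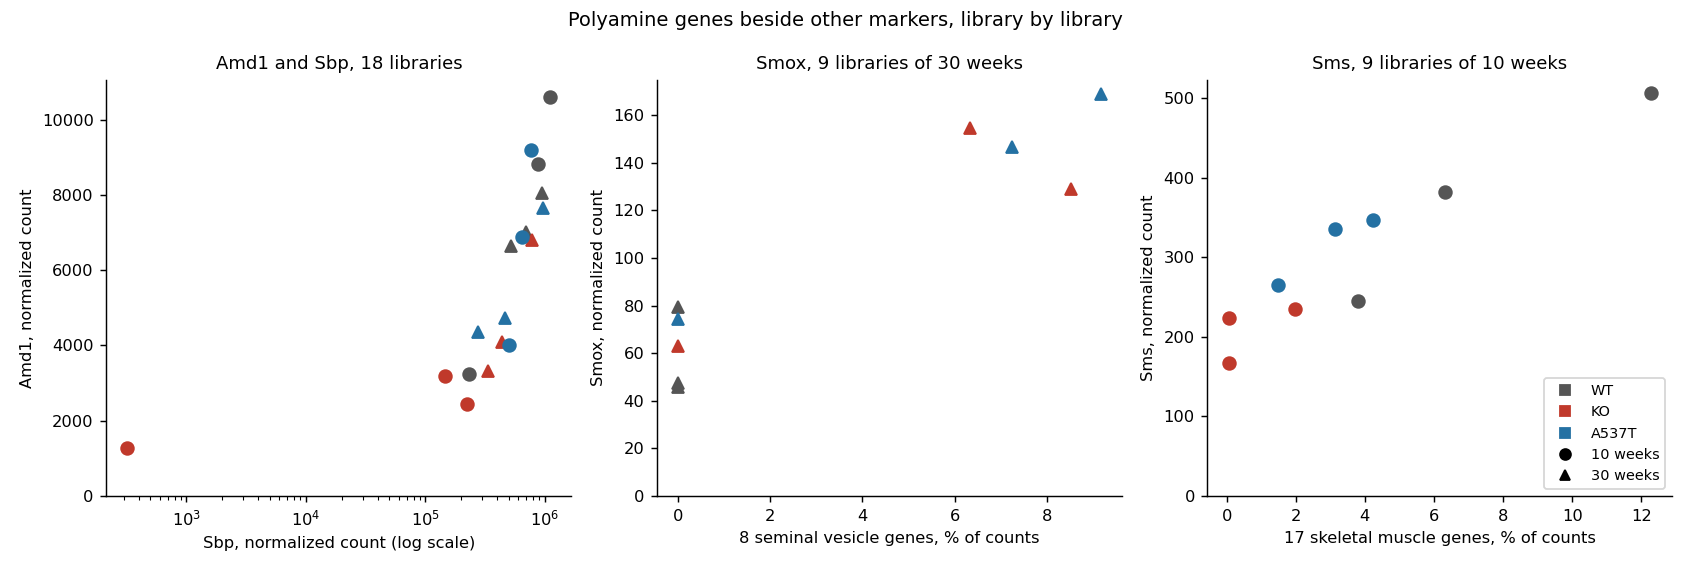
Left, Amd1 against Sbp normalized counts (log x axis) in 18 libraries; middle, Smox against the share of counts from 8 seminal vesicle genes in the 9 libraries of 30 weeks; right, Sms against the share from 17 skeletal muscle genes in the 9 libraries of 10 weeks. The 4 mutant libraries with 6.32 to 9.17% seminal vesicle counts have 129.1 to 168.7 Smox counts, and the other 5 have 45.8 to 79.5. WT points come from the KO tables.

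Across the 18 libraries, on log2(CPM + 1), the synthesis genes Odc1 and Amd1 moved most alike of the 45 pairs (Pearson r = 0.86), and Sat1 moved opposite to Sms (r = -0.74) and Amd1 (r = -0.73). Azin1 had an r between -0.18 and 0.25 with every other member but Srm (0.54). Amd1 followed Sbp (r = 0.80), Sms and Smox followed the skeletal muscle genes (r = 0.85 and 0.78), and Oaz1 went against the seminal vesicle genes (r = -0.78). The points pool both ages, and the skeletal muscle genes made up at most 0.0697% in any library at 30 weeks. Values of r with those genes therefore also carry the difference between the ages. The points also share WT groups, tissue makeup and scaling, so all these r values describe these libraries, and no test was made of them. Of the 7667 genes ranked, those most like Amd1 were Fndc5 (r = 0.96), Fam160a1 (0.96) and Neat1 (0.95). Cdv3 was most like Odc1 (0.93), Srp68 most like Srm (0.94), Carnmt1 most like Sms (0.95) and Srp72 most like Azin1 (0.88). The proteasome subunit gene Psmb6 was most like Oaz1 (0.95), Idh3g most like Oaz2 (0.91), Ndufa8 most like Paox (0.83) and Vldlr most like Smox (0.92).

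**Figure D4:**
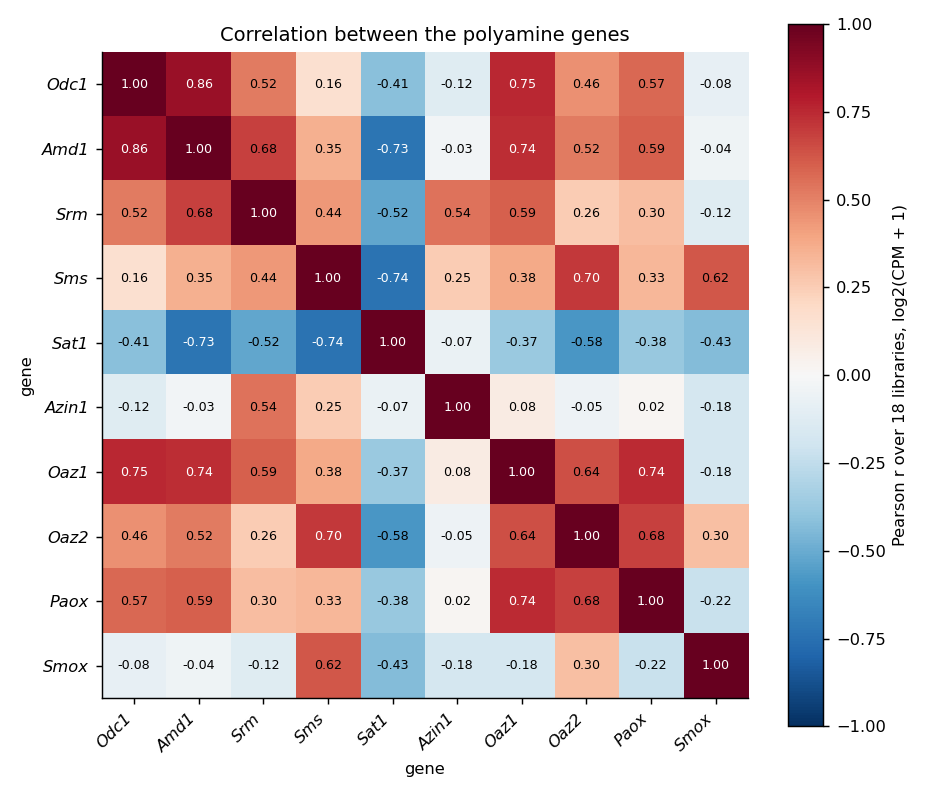
Pearson correlation of log2(CPM + 1) over 18 libraries between each pair of the 10 genes (color from -1 to 1, value printed in each cell). Odc1 and Amd1 show the highest value (0.86) and Sat1 and Sms the lowest (-0.74).

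No gene of the other polyamine lists passed limma's adjusted threshold in any comparison. Among genes of precursor supply, which make ornithine and S-adenosylmethionine, 7 of 9 were tested, and their median log2 fold change was -0.05 and -0.09 in the KO and A537T at 10 weeks and -0.46 and -0.39 at 30 weeks. Mat2a, the synthase of S-adenosylmethionine and the most abundant of the list, stood at 4891, 15104 and 19386 normalized counts in WT and 4694, 5047 and 799.1 in the KO at 10 weeks (log2 fold change -2.08 ± 0.82, limma adjusted p = 0.239), with WT library 10AF again near the KO. Ass1, which makes argininosuccinate, was below WT in both mutants at 30 weeks, at 73.8 to 83.0 in the KO against 91.7 to 208.9 (-0.97 ± 0.31) and at 64.6 to 86.5 in A537T against 92.2 to 209.8 (-1.02 ± 0.32). Arg1, an arginase that yields ornithine, was below WT in A537T at 30 weeks, at 7.7 to 15.1 against 25.7 to 36.7 (-1.35 ± 0.37, limma adjusted p = 0.272). Arg2, the more abundant arginase (26.8 RPKM on average in that group, against 0.585 for Arg1), overlapped WT in all 4 comparisons. Its value in A537T at 30 weeks was -0.39 ± 0.20 (limma adjusted p = 0.422). Of the 7 precursor genes tested at 30 weeks, 1 in the KO and 2 in A537T lay entirely below WT. The shares of all genes that did so were 8.41 and 9.40%. Oat and Mat2b had log2 fold changes between -0.15 and 0.01 in all 4 comparisons.

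All 5 genes of methylthioadenosine salvage, which recycles the by-product of both synthases, were tested. In the 4 comparisons with WT none had an unadjusted p under 0.05 except Enoph1 in the KO at 30 weeks, at 76.2 to 115.3 against 122.2 to 130.2 (-0.43 ± 0.18). In that comparison 5.41% of all genes were lower at an unadjusted limma p under 0.05. Adi1, the most abundant, stood at 294.5, 852.0 and 750.8 in WT and 461.4, 450.8 and 148.6 in the KO at 10 weeks, with overlap, and Mtap and Mri1 had log2 fold changes between -0.31 and 0.27. Of the 4 genes for hypusine, the spermidine-derived residue of the translation factor Eif5a, Dhps was below WT in the KO at 10 weeks, at 33.2 to 42.1 against 64.3 to 74.4 (-0.93 ± 0.20, limma adjusted p = 0.183). It was the 1 of 4 tested that lay entirely below WT there, as did 14.3% of all genes. Eif5a itself and Dohh had log2 fold changes between -0.30 and -0.08 in the 4 comparisons.

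Of the 9 transport and storage genes, 8 were tested in the KO at 10 weeks and 7 in the other comparisons. At 10 weeks in the KO 7 of the 8 had a log2 fold change above 0, as did 7459 of the 15089 genes tested. Their median was 0.54, against -0.70 for the 10 genes of synthesis and turnover, of which Sat1 and Azin1 were higher too. The KO libraries lay entirely above WT for 3 of the 8 and entirely below for 1, as for 11.7 and 14.3% of all genes. No test was made of the list. Slc3a2, a subunit of amino acid exchangers linked to polyamine export, was above WT at 701.1 to 778.5 against 290.7 to 626.1 (0.75 ± 0.27), and Atp13a2, the lysosomal polyamine exporter, at 496.1 to 534.4 against 367.3 to 435.3 (0.38 ± 0.12). Slc47a1, a cation extruder, was below WT, with a median of 9.1 against 38.3 (-2.51 ± 0.75), and DESeq2 called it with an adjusted p of 0.0252. In the KO at 30 weeks Slc22a3 was above WT, with a median of 30.2 against 5.8 (2.35 ± 0.80). It was the 1 of 7 tested that lay entirely above, as did 7.92% of all genes. Atp13a3, the most abundant of the list, had log2 fold changes between 0.00057 and 0.31.

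Of 5 further regulators and catabolic genes only Sat2 and Azin2 passed the filter on low values, and neither had an unadjusted p under 0.05 in any comparison. Aoc1, the diamine oxidase, stayed at or below 25.8 normalized counts. Of the secreted partners, Sbpl, a relative of Sbp, stood at 9.8, 44.1 and 44.9 in WT and at 14.6, 4.7 and 0.0 in the KO at 10 weeks. Sbp at 30 weeks was 525004 to 954821 in WT, 336622 to 785406 in the KO and, in its own table, 274692 to 962856 in A537T, with overlap. Tgm4 ranged from 18.4 to 59219 within the WT libraries of the KO tables.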

How the data were processed

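RNA was sequenced (Illumina TruSeq, NovaSeq) from 3 prostates per group. The authors trimmed reads (Trim Galore 0.4.1, cutadapt 1.18), aligned them with STAR 2.7.3a to GRCm38.p6 masked for nuclear mitochondrial sequences, quantified them with Salmon as a stranded library and imported them with tximport. The deposited values (unit signal) are counts per gene after division by the size factor that DESeq2 1.26 gave the library. Each of 4 tables holds 6 libraries, 3 of a mutant group and 3 of WT mice of that age. At least 99.99% of values were whole multiples of the value of 1 count (tolerance 0.1), and these recovered counts gave CPM and RPKM. For 3AF, 7AF and 18AF the size factor is so close to 1 that the steps could not be checked automatically. The recovered counts of a WT library differ between tables by a factor that is nearly constant for a gene, so they cannot all be raw reads, and how they were scaled is not given in the sources used here. Separate files deposited by the authors hold their own log2 fold changes and s-values, which were not used. Column names carry no genotype, and libraries were assigned to groups, not to replicates.

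The test was limma 3.58.1 (mean trend, R 4.3.3) on log2 of the normalized count plus 1, for genes whose mean over the table reached 10, each mutant against the WT libraries of its table, with Benjamini-Hochberg adjustment over all genes and a threshold of 0.05. Fold changes on this scale understate low genes. The difference between ages was a contrast of 4 groups over 12 libraries. Alternatives were a pseudocount of 8, a minimum mean of 1, scaling to the same total, edgeR 4.0.16, DESeq2 1.42.0, tissue scores as covariates and leaving out each library. RPKM used the summed exon length of GENCODE vM21, matched by gene ID. Named genes were the 10 members, their copies, Elac2, the 3 most abundant genes of each other list, genes of those lists with an unadjusted p under 0.05 and no overlap, and the genes most correlated with each member. Arg2 is named beside Arg1, outside this rule. The members and lists were chosen with earlier results of these data known. Some genes that the naming rule selects are not reported here.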

Additional observations from a re-analysis of the deposited data

Results flagged for a closer look

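One result was singled out because all libraries of a group moved one way at one age and the opposite way at the other. In the KO, Azin1 lay above all WT libraries at 10 weeks and below all of them at 30 weeks. Of all genes tested, 11.7% lay entirely above WT in the KO at 10 weeks and 8.41% entirely below at 30 weeks. How many genes did both is not given here, so the pattern cannot be called unusual. The difference between the 2 log2 fold changes was -0.71 ± 0.18 (SE), and it did not pass the correction in limma (adjusted p = 0.254). The adjusted p ran from 0.0956 to 0.517 over its 15 alternatives, and the value from -0.93 to -0.62. Groups of 3 are too small for a test of single outlying libraries.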

How the results depend on the processing

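Each comparison had 0 genes called by limma and by edgeR. DESeq2 called 696 and 94 genes (KO and A537T at 10 weeks) and 279 and 457 (30 weeks). A minimum mean of 1 called 2 genes in A537T at 10 weeks, and the seminal vesicle score 3 in A537T at 30 weeks. Leaving out 1 library gave 0 to 2886 (highest without 10AF), 0 to 50 (without 10AF), 0 to 944 (without 5AF) and 0 to 1224 (without 8AF) genes, and for the age differences 0 to 30 in the KO (without 14AF) and 0 to 382 in A537T (without 8AF). Scaling to the same total moved the median log2 fold change of all genes to 0.20 and 0.15 at 10 weeks (KO and A537T), and to -0.19 and -0.12 in the age differences. Scaling to the same total outside Sbp and the seminal vesicle and skeletal muscle genes, chosen after seeing the data, called 0 genes in each of the 4 comparisons. No paired analysis was possible because the columns carry no replicate numbers.

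Of the members' log2 fold changes, the skeletal muscle score turned Paox to 0.053 in the KO at 10 weeks and, in A537T at 10 weeks, Odc1 to 0.41, Amd1 to 1.00, Sms to 0.32, Oaz1 to 0.026, Paox to 0.26 and Smox to 0.50. The seminal vesicle score at 30 weeks turned Odc1 to 0.30 and Oaz1 to 0.078 in the KO, and Amd1 to 0.026, Srm to 0.042 and Sat1 to -0.21 in A537T. Same-total scaling turned the age difference of Oaz1 in A537T to -0.041. Leaving out 1 library crossed 0 for Amd1 (-0.66 to 0.18), Srm (-0.034 to 0.28) and Paox (-0.49 to 0.17) in A537T at 10 weeks, Odc1 in the KO (-0.35 to 0.068) and A537T (-0.29 to 0.0027) at 30 weeks and Sat1 in A537T (-0.017 to 0.23). It did so for the age differences of Srm (-0.28 to 0.0027), Sat1 (-0.22 to 0.036) and Paox (-0.14 to 0.53) in the KO and of Amd1 (-0.60 to 0.24), Sms (-0.26 to 0.25), Oaz1 (-0.10 to 0.26) and Oaz2 (-0.073 to 0.30) in A537T. The cause was not tested. Of 820 alternative values, 769 kept their direction and side of the threshold, 38 changed direction and 13 passed the threshold that the reported value did not.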
